A study of Mus musculus with 8 samples.

Results

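The genes described here encode the proteasome, and were all features of the deposited table whose gene name starts with Psm, followed by a letter from a to g and a number. The rule found 49 of 26873 features, with 0 repeated names. Of these, 48 encode subunits, activators, an inhibitor or assembly chaperones of the proteasome. The other, Psmc3ip, matches the pattern by name only and encodes a homologous-pairing protein that acts with recombinases, so it is given once and left out of the counts. By role, the 48 genes comprised 8 of the 20S alpha rings, 7 constitutive genes of the 20S beta rings, 4 inducible or tissue-restricted catalytic genes, 6 ATPases and 11 other subunits of the 19S particle, 5 activators or inhibitors and 7 assembly chaperones. Psma3l was placed among the alpha subunits from the Swiss-Prot annotation in the table, and because it is a near copy of Psma3, how reads were divided between the copies is uncertain.

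The proteasome degrades proteins that carry ubiquitin chains. Its barrel, the 20S core, has outer rings of alpha subunits that form the gate and inner rings of beta subunits, among which Psmb5, Psmb6 and Psmb7 carry the proteolytic sites; in immune cells and under interferon these are replaced by Psmb8, Psmb9 and Psmb10. The 19S particle binds, unfolds and feeds substrates to the core, while the PA28 caps (Psme1, Psme2, Psme3) and PA200 (Psme4) open it without ATP. When proteasome activity is short, the transcription factor Nfe2l1 raises transcription of most subunit genes together, and Nfe2l2 does so under oxidative stress.

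Messenger RNA was sequenced from bone marrow mesenchymal stem cells, described as a wild-type BMSC line and kept in osteogenic differentiation. The cells received extracts of polycaprolactone (PCL) scaffolds, made by soaking scaffold in complete DMEM with 10% FBS at 1.25 cm2 per ml for 72 h at 37 °C. The 4 arms were PCL-O, taken as the blank by elimination, PCL-S with S7, PCL-E with E7, and PCL-SE with both; the labels do not say what S7 and E7 are. Each arm had 1 library on day 3 and 1 on day 7, and all 8 shared the scaffold polymer and the osteogenic treatment. The labels name mouse and the identifiers in the table are rat Ensembl identifiers, so the species is uncertain and symbols follow the table.

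Totals ran from 32950326 counts (PCL-S, day 7) to 41754124 (PCL-E, day 7), so that 3 counts corresponded to 0.0718 to 0.091 CPM (counts scaled to library depth). The day 7 libraries with S7 stood apart from the rest over all genes: their TMM scaling factors, which adjust for differences in RNA composition, were 1.15 and 1.16, against 0.928 to 1.02 in the other 6. The 9 stromal markers summed to 6365 and 6718 CPM in them and to 16451 to 33909 CPM elsewhere, most of it the collagen gene Col1a1, and the part of this in the results below was not tested. Thy1, another stromal marker, was present throughout at 384 to 857 CPM, whereas Vcam1 did not exceed 0.503 CPM. Pdgfra was higher in the day 7 libraries with S7 (77.6 and 82.2 CPM) than in those without (51.5 and 33.6 CPM). Lepr (0.698 and 0.48 against 2.25 and 3.74 CPM), Cxcl12 (0.607 and 0.507 against 3.67 and 4.62 CPM) and Nt5e (1.91 and 2.32 against 3.58 and 2.63 CPM) were lower. In the tests described below, 1 of the 9 stromal markers rose with S7 on day 7 and 5 fell, where 24.9% and 26.2% of all genes did. Of the osteoblast markers, Spp1 stood at 638 to 2795 CPM and Runx2 at 14.9 to 35.2 CPM. Alpl stood at 0.698 and 1.33 CPM with S7 on day 7 and at 7.25 to 13.2 CPM elsewhere. Sp7 and Ibsp did not exceed 0.64 and 0.969 CPM, and the late gene Bglap did not exceed 0.152 CPM. CPM below are scaled to library totals, whereas fold changes are scaled with TMM, and the 2 differ on day 7. For arms with S7 over arms without, the day 7 median log2 fold change of all genes tested was -0.029 with TMM and 0.193 with library totals. Shares and CPM on day 7 therefore show a larger rise with S7 than the fold changes do.

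As a share of each library, the 48 genes lay close together on day 3 and far apart on day 7. On day 3 they took 0.358% of counts for PCL-O, 0.365% for PCL-E, 0.356% for PCL-S and 0.369% for PCL-SE. On day 7 the shares were 0.346% for PCL-O, 0.409% for PCL-E, 0.636% for PCL-S and 0.641% for PCL-SE. Both day 7 libraries with S7 were therefore above every other library, PCL-E came next, and PCL-O was lowest. In bulk RNA, a change in the mix of cells and a change in RNA per cell cannot be told apart.

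**Figure D1:**
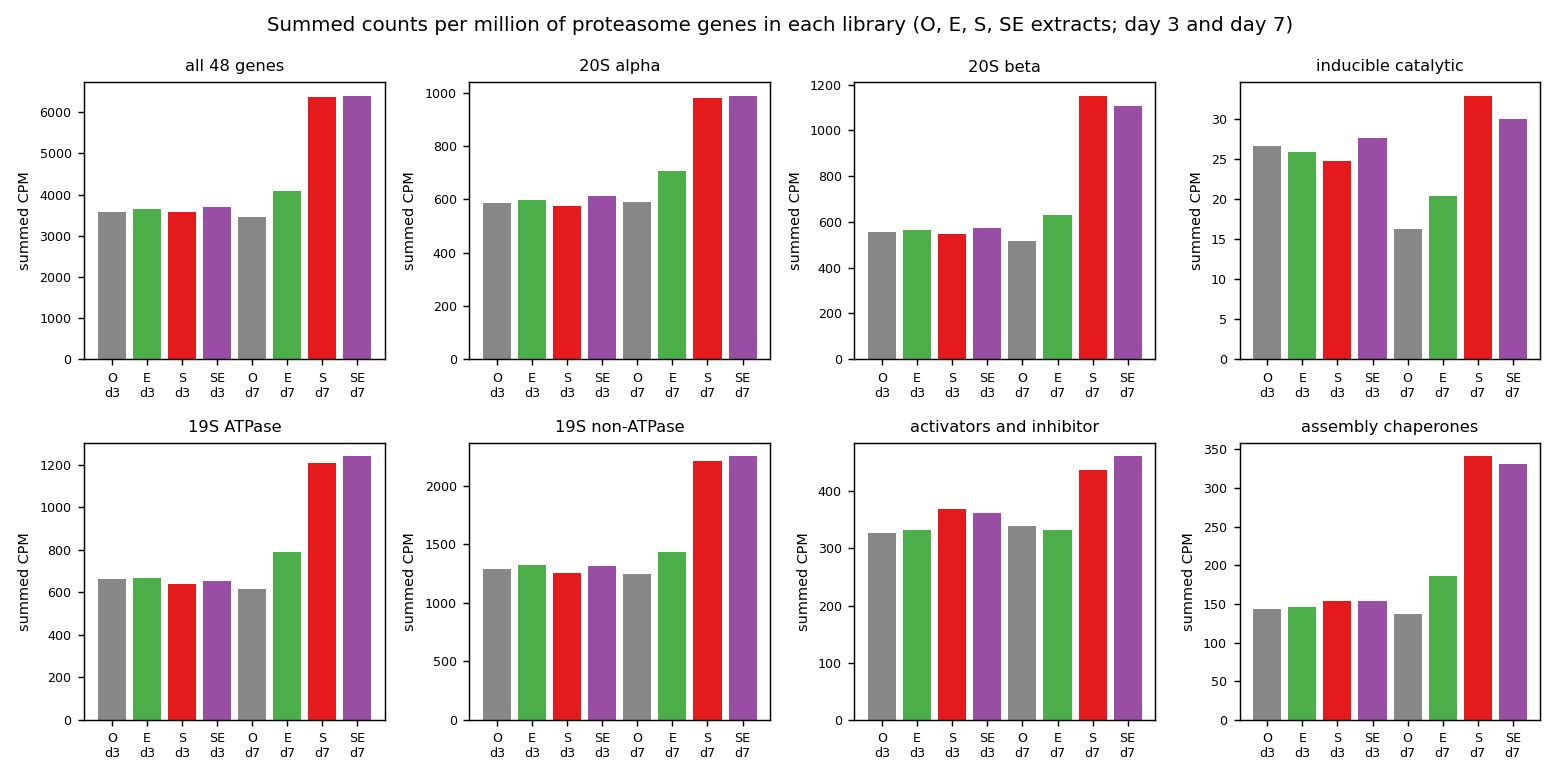
Summed CPM of the proteasome genes in each of the 8 libraries, for all 48 genes and for each role; each bar is 1 library (grey PCL-O, green PCL-E, red PCL-S, purple PCL-SE; d3 and d7 are day 3 and day 7) and the vertical axes start at 0. On day 3 all 48 genes summed to 3564 to 3695 CPM, and on day 7 to 3459, 4095, 6362 and 6409 CPM for PCL-O, PCL-E, PCL-S and PCL-SE.

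For tests, all 8 libraries entered an edgeR quasi-likelihood fit with terms for S7, day, their interaction and E7, and adjusted p-values (Benjamini-Hochberg over 15942 genes) under 0.05 were called. The S7 effect sets PCL-S and PCL-SE against PCL-O and PCL-E on the same day. With 1 library per arm and day, the error is the departure of libraries from these terms and not the variation between cultures. Of the 48 genes, 46 had enough counts to be tested; Psma8, a testis-enriched alpha subunit, reached at most 0.117 CPM and Psmb11, the catalytic subunit of thymic epithelium, at most 0.173 CPM. Psmc3ip was tested as well, and its S7 effect on day 7 was a log2 fold change of 0.15 ± 0.19 (SE; adjusted p = 0.521).

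S7 on day 7 went with more RNA of nearly every proteasome gene. Of the 46 genes, 39 rose and 0 fell (0 also at an unadjusted p under 0.05 and with DESeq2), where 24.9% of all genes tested rose and 26.2% fell. The median log2 fold change was 0.55 for the 46 genes and -0.03 for all genes. All 7 constitutive beta genes rose (median 0.77), as did all 6 ATPases (0.56), 10 of 11 other 19S genes (0.49), 5 of 7 alpha genes (0.47), 4 of 5 activators and inhibitors (0.67), 6 of 7 chaperones (0.70) and 1 of 3 inducible genes. Levels of the arms with S7 lay wholly above those without for 43 genes (36.7% of all genes) and wholly below for 1, Psmd1 (38.4% of all genes), on the TMM-scaled CPM.

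**Figure D2:**
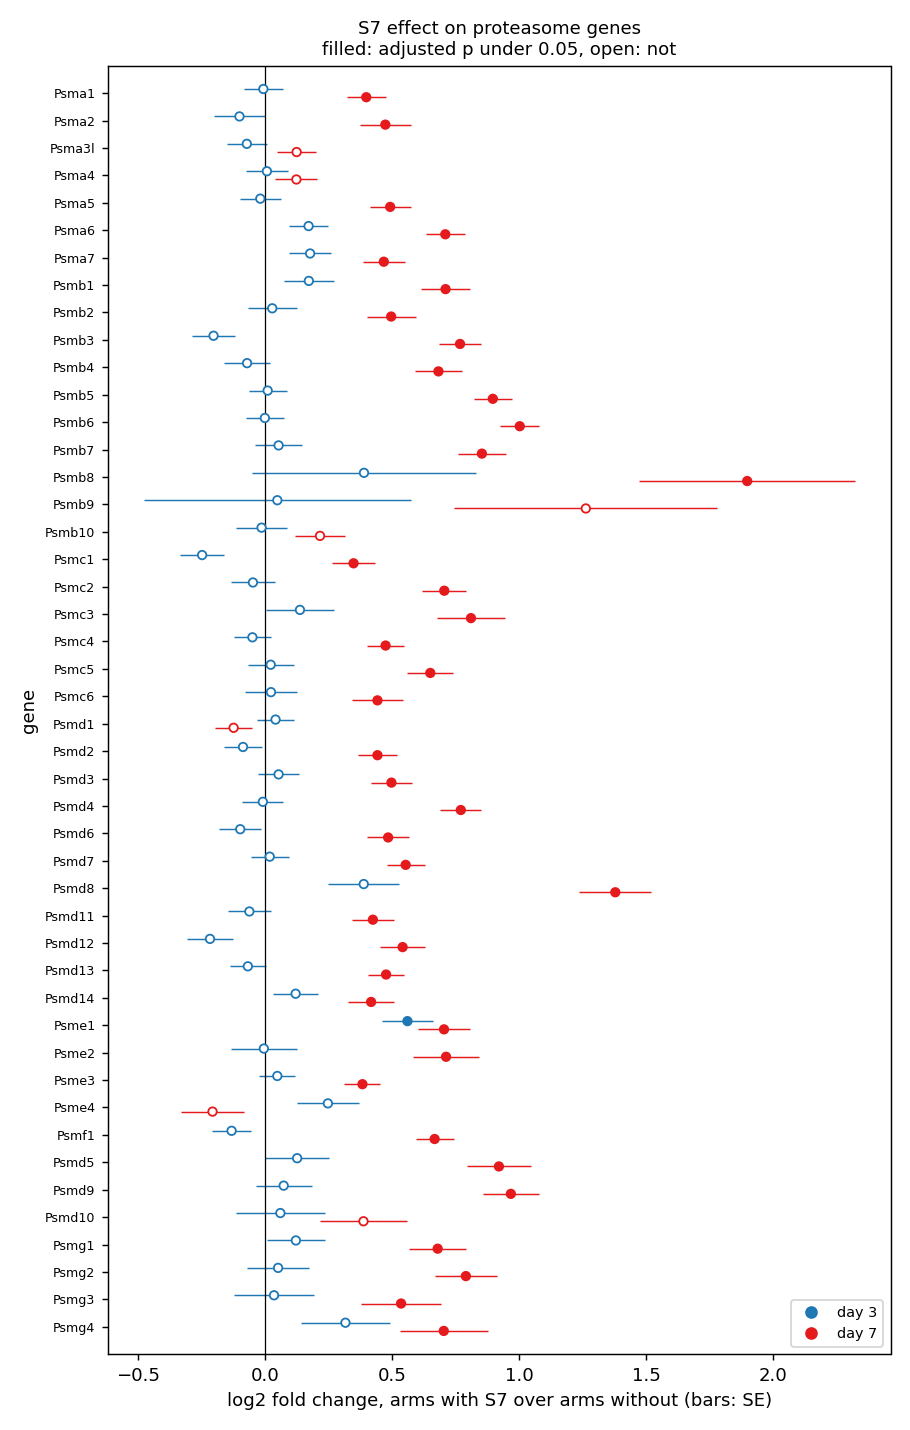
Log2 fold change of each of the 46 tested genes for S7 against no S7 on day 3 (blue) and day 7 (red), with standard errors as bars; filled points have an adjusted p under 0.05. On day 7, 39 points are filled and all lie right of 0, whereas on day 3 the filled point is Psme1 at 0.56.

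All 3 constitutive proteolytic subunits of the core rose. Psmb6, which carries the caspase-like site, stood on day 3 at 40.1 CPM for PCL-O, 41.2 for PCL-E, 38.2 for PCL-S and 42.4 for PCL-SE, and on day 7 at 36.9, 41.9, 91.3 and 92.8 CPM in the same order. The 2 day 7 libraries with S7 were far above the other 6, which lay close together. The S7 effect on day 7 was a log2 fold change of 1.00 ± 0.08 (SE; edgeR, adjusted p = 0.000214).

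Psmb5, the chymotrypsin-like subunit and the main target of proteasome inhibitors, stood on day 3 at 76.6 CPM for PCL-O, 80.2 for PCL-E, 79.1 for PCL-S and 77.1 for PCL-SE, and on day 7 at 67.8, 76.1, 158 and 155 CPM. Its pattern had the same shape, with 6 libraries close together and the day 7 libraries with S7 apart, and a day 7 log2 fold change of 0.90 ± 0.08 (edgeR, adjusted p = 0.00028). Psmb7, the trypsin-like subunit, stood in the same order at 72.9, 78.8, 73.2 and 82.7 CPM on day 3 and at 77.1, 97.1, 186 and 179 CPM on day 7, a log2 fold change of 0.85 ± 0.09 for S7 on day 7 (adjusted p = 0.000629). PCL-E on day 7 was here above PCL-O and every day 3 library, though far below the arms with S7. Among the beta genes the lowest value was that of Psmb2, a structural subunit, at 0.50 ± 0.10 (adjusted p = 0.00545); its call was lost without PCL-S on day 7 (adjusted p = 0.0506), and it was 0.31 with the trend with gene length removed (adjusted p = 0.013).

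Stretches just upstream of 4 start sites are shown as examples, chosen after their values were seen, of genes that rose with the letters TGACNNNGC (Psmb5, Psmb6 and the chaperone gene Psmd9) and without them (Psmd8, the largest rise among the constitutive genes). These letters are the core of the antioxidant response element, which Nfe2l1 and Nfe2l2 bind in dimers with small Maf proteins. Each line gives the 150 bases that end just before the start site, 5′ to 3′ on the gene's strand, with matches in capitals, from mouse RefSeq (GRCm38.p6), although the identifiers of the measured genes are rat. The coordinates are chr14:54617996-54618145, minus strand, for Psmb5, chr11:70525207-70525356, plus strand, for Psmb6, chr5:123228040-123228189, plus strand, for Psmd9 and chr7:29180674-29180823, minus strand, for Psmd8.
Psmb5: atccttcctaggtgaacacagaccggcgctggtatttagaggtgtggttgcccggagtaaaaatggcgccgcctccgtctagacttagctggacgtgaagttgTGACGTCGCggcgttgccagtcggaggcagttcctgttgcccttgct
Psmb6: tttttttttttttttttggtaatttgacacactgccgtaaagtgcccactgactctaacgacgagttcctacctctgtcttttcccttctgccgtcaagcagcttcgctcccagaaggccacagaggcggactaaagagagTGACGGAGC
Psmd9: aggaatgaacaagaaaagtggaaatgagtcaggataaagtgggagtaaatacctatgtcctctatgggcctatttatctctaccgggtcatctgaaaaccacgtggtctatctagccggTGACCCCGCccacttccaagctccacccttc
Psmd8: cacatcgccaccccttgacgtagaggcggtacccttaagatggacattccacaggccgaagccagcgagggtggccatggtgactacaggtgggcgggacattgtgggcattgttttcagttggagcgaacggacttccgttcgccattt
The match began 47 bases before the start site in Psmb5, 9 in Psmb6 and 31 in Psmd9. In windows from 250 bases before to 50 bases after the start, searched on both strands, 6 of the 39 genes with a window held the letters (15.4%), against 3781 of 27025 mouse genes (14%). The other 3 were Psmc6 and Psmd12, with day 7 log2 fold changes for S7 of 0.44 and 0.54, and Psme4, with -0.21. Psmd5, Psmb8 and Psmb9, with 0.92, 1.90 and 1.26, held no match in their windows. For 9 genes no window was used here.

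Of the 7 tested alpha genes, 5 rose. Psma6, at 68.8, 75.8, 78.8 and 82.1 CPM on day 3 for PCL-O, PCL-E, PCL-S and PCL-SE and at 69.8, 85.5, 144 and 152 CPM on day 7, had the highest S7 effect of its ring (log2 fold change 0.71 ± 0.08, edgeR adjusted p = 0.00061). Psma4 had the lowest, with 84.1, 84.9, 80.6 and 87.7 CPM on day 3 and 80.4, 100.1, 110.2 and 119 CPM on day 7. Its arms overlapped after TMM scaling and its effect of 0.12 ± 0.08 was not called (adjusted p = 0.252), turned to -0.004 with the trend with gene length removed and was called at 0.35 with library totals (adjusted p = 0.0184). Psma3l was not called either (0.13 ± 0.08, adjusted p = 0.221), but was called at 0.25 with the length trend removed (adjusted p = 0.0282).

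In the base of the 19S particle, the ATPase ring that unfolds substrates, Psmc3 rose most. It stood at 153, 155, 169 and 166 CPM on day 3 for PCL-O, PCL-E, PCL-S and PCL-SE and at 133, 196, 336 and 332 CPM on day 7 (log2 fold change for S7 on day 7 0.81 ± 0.14, edgeR adjusted p = 0.00296). PCL-O on day 7 was the lowest of the 8 libraries, and PCL-E on day 7 lay between it and the arms with S7. Psmc1, another ATPase of the ring, rose least, at 0.35 ± 0.09 (adjusted p = 0.0144), a call lost without PCL-S on day 7 (adjusted p = 0.0842) or PCL-SE on day 7 (adjusted p = 0.0617).

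Among the other 19S genes, Psmd8 and Psmd1 marked the ends of the range. Psmd8, a lid subunit, stood on day 3 at 99.5 CPM for PCL-O, 90.6 for PCL-E, 121 for PCL-S and 126 for PCL-SE, and on day 7 at 73.5, 107, 271 and 271 CPM. The arms with S7 were above those without on both days, by little on day 3 and by much on day 7. The day 7 log2 fold change of 1.38 ± 0.14 (edgeR, adjusted p = 0.000509) was the second highest of the 46 genes. Psmd4, the ubiquitin receptor Rpn10, rose by 0.77 ± 0.08 (adjusted p = 0.000555).

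Psmd1, a large scaffold subunit of the base, did not pass the test. Its levels were 162, 169, 163 and 175 CPM on day 3 and 166, 180.4, 183 and 188 CPM on day 7 for PCL-O, PCL-E, PCL-S and PCL-SE. The 8 values lay close together, and the log2 fold change of -0.12 ± 0.07 (edgeR, adjusted p = 0.201) turned to 0.10 when library totals replaced TMM. The median of all genes moved with that scaling from -0.03 to 0.19, and the calls over all genes from 3965 higher and 4172 lower to 5642 higher and 3010 lower; the median of the 46 genes moved from 0.55 to 0.77, and 44 were then called.

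The PA28 genes and the inhibitor rose on day 7, and PA200 did not pass the test. Psme1, the alpha chain of the interferon-inducible PA28 cap, stood on day 3 at 16.5 CPM for PCL-O, 16.6 for PCL-E, 25.4 for PCL-S and 22.8 for PCL-SE, and on day 7 at 15.2, 17.7, 31.6 and 31.0 CPM. The arms with S7 were above those without on both days, with log2 fold changes of 0.56 ± 0.10 on day 3 (edgeR, adjusted p = 0.0151) and 0.70 ± 0.10 on day 7 (adjusted p = 0.0017).

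Its partner in the same cap, Psme2, stood at 15.6, 16.6, 16.8 and 15 CPM on day 3 and at 13.5, 17.8, 30.3 and 29.5 CPM on day 7 for PCL-O, PCL-E, PCL-S and PCL-SE. The arms with and without S7 overlapped on day 3, and the day 7 effect was 0.71 ± 0.13 (edgeR, adjusted p = 0.00433). Psme3, the nuclear PA28 subunit, rose by 0.38 ± 0.07 on day 7 (adjusted p = 0.00463), and Psmf1, the inhibitor PI31, by 0.67 ± 0.08 (adjusted p = 0.000694).

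Psme4, the nuclear activator PA200, did not pass the test for S7 on day 7. It stood at 168, 167, 198 and 195 CPM on day 3 and at 179, 154, 156 and 182 CPM on day 7 for PCL-O, PCL-E, PCL-S and PCL-SE, so that the day 7 arms overlapped. The log2 fold change of -0.21 ± 0.12 (edgeR, adjusted p = 0.204) changed sign with library totals (0.02) and with the length trend removed (0.20). Without PCL-E on day 7 it was called lower (-0.38, adjusted p = 0.0196).

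Assembly chaperones, which build the particle and leave it, moved with the subunits. Psmd9, a chaperone of the ATPase ring, stood at 30.5, 31.4, 32.9 and 31.5 CPM on day 3 for PCL-O, PCL-E, PCL-S and PCL-SE and at 29.7, 37.8, 80.7 and 73.2 CPM on day 7. The day 7 libraries with S7 were again apart from the other 6 (log2 fold change 0.97 ± 0.11, edgeR adjusted p = 0.000708). Psmd5, which also chaperones that ring, rose by 0.92 ± 0.13 (adjusted p = 0.00135), and the core chaperones Psmg1 to Psmg4 rose by 0.54 to 0.79; the calls of Psmg3 and Psmg4 were lost with the length trend removed (adjusted p = 0.0961 and 0.0655). Psmd10, the chaperone and oncoprotein gankyrin, was low, at 3.28 to 5.95 CPM over the 8 libraries, and its effect of 0.39 ± 0.17 was not called (adjusted p = 0.1).

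The inducible catalytic subunits did not move as a block. Psmb8 stood on day 3 at 1.42 CPM for PCL-O, 1.56 for PCL-E, 1.56 for PCL-S and 2.38 for PCL-SE, and on day 7 at 0.971, 3.35, 9.20 and 8.03 CPM. Every arm with an added agent exceeded PCL-O on day 7, and the arms with S7 were highest. Its log2 fold change for S7 on day 7 was the largest of the 46 genes, 1.90 ± 0.42 (edgeR, adjusted p = 0.0097), and the call was lost without PCL-S on day 7 (1.42, adjusted p = 0.0666).

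Psmb9 was low, at 0.753, 0.951, 0.927 and 0.793 CPM on day 3 and 0.364, 1.15, 2.46 and 1.68 CPM on day 7 for PCL-O, PCL-E, PCL-S and PCL-SE, and its effect of 1.26 ± 0.52 was not called (edgeR, adjusted p = 0.0809; with library totals 0.0487). Psmb10, the highest of the 3 in FPKM, had another pattern, with 24.5, 23.2, 22.3 and 24.5 CPM on day 3 and 14.8, 15.8, 21.2 and 20.3 CPM on day 7. All 4 day 7 libraries were below all 4 day 3 libraries, least so with S7, and the S7 effect on day 7 was 0.22 ± 0.10 (adjusted p = 0.112; with library totals 0.44 and 0.0111). Per length, on the authors' FPKM scale, Psmb8 amounted to 1.14% to 2.49% of Psmb5 in PCL-O and on day 3, and to 3.57% for PCL-E, 4.74% for PCL-S and 4.22% for PCL-SE on day 7. Psmb9 stayed between 0.748% and 2.12% of Psmb6, and Psmb10 went from 25.8% to 29.7% of Psmb7 on day 3 to 17.1% for PCL-O, 14.5% for PCL-E, 10.3% for PCL-S and 10.0% for PCL-SE on day 7.

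**Figure D3:**
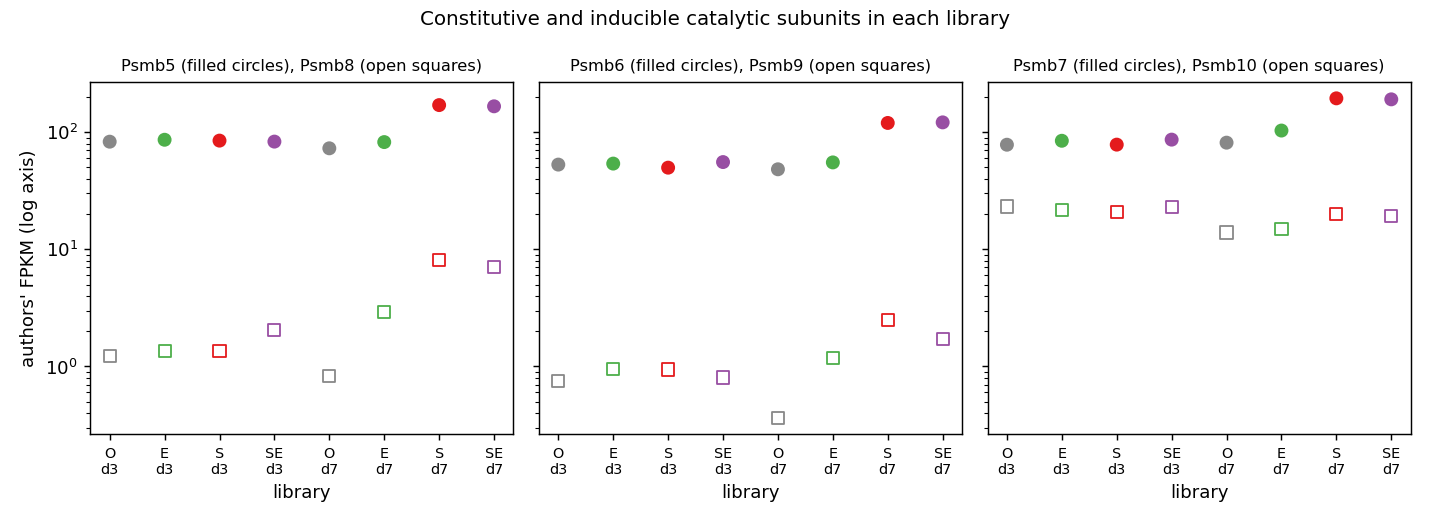
FPKM (log axis) of the constitutive catalytic subunits (filled circles) and their inducible counterparts (open squares) in each library; colours mark the arms (grey PCL-O, green PCL-E, red PCL-S, purple PCL-SE). Psmb5 reached 170.4 and 166 FPKM with S7 on day 7 and Psmb8 8.07 and 7.02 FPKM, whereas Psmb10 on day 7 stayed below its day 3 range of 20.9 to 23.2 FPKM.

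Blood cells carry these inducible subunits at rest. The 9 blood cell markers summed to 6.64 to 10.0 CPM in the 4 libraries without S7 and to 16.2 to 20.5 CPM in the 4 with S7, on both days; most of this was Cd14 (5.97 to 9.05 and 15.6 to 18.9 CPM), a gene that other cell types also transcribe. The pan-leukocyte gene Ptprc did not exceed 0.0533 CPM, and Cd3e and Adgre1 were at 0 in all 8 libraries. Other markers were low and differed in direction. Laptm5 stood on day 7 at 0, 0.407, 0.637 and 0.213 CPM for PCL-O, PCL-E, PCL-S and PCL-SE, and did not exceed 0.0881 CPM on day 3. On day 7, Cd68 stood at 0.789 and 0.533 CPM with S7 and at 0.395 and 0.287 CPM without. Itgam was at 0 with S7 on day 7 and at 0.121 and 0.0958 CPM without, and Csf1r overlapped. The part of the marker sum in the pattern of Psmb8 was not tested.

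On day 3 the S7 effect was called for 1 of 46 genes, Psme1 (7.1% of all genes rose), and for 0 in the other direction (6.87% of all genes; 3 of the 46 at an unadjusted p under 0.05, and 0 with DESeq2). The median was 0.02 for the 46 genes and 0.003 for all genes. Arms with S7 lay wholly above those without for 18 genes and wholly below for 12, against 35.2% and 33.4% of all genes. The Psme1 call was lost on leaving out any of the day 3 libraries, with adjusted p-values of 0.152 without PCL-O, 0.107 without PCL-E, 0.197 without PCL-S and 0.0703 without PCL-SE.

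The difference between the days was tested as the interaction of S7 and day. It was positive and called for 32 of the 46 genes and negative for 0 (1 at an unadjusted p under 0.05, 0 with DESeq2), where 13.2% of all genes were called positive and 15.5% negative; the median was 0.54, and -0.03 for all genes. All 7 constitutive beta genes were called, among them Psmb6 (1.00 ± 0.11, edgeR adjusted p = 0.00224), as were 5 of 6 ATPases, 9 of 11 other 19S genes, 4 of 7 alpha genes, 3 of 5 activators and inhibitors, 4 of 7 chaperones and 0 of 3 inducible genes. For Psme1, which was higher with S7 on both days, the difference was 0.14 ± 0.14 (adjusted p = 0.49). This count depended on single libraries: it fell well below 32 on leaving out any of the day 3 libraries or PCL-S on day 7. The positive calls over all genes fell as well in these fits, each of which leaves 1 library in a group. An additive fit of arm and day, which estimates 1 S7 effect over both days and has no such term, called 1 gene, Psme1 (0.63).

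Without S7, Psmb10 was the gene that changed over time. From day 3 to day 7 in PCL-O and PCL-E, 0 of 46 genes rose (0 also at an unadjusted p under 0.05 and with DESeq2) and 1 fell, against 0.671% and 0.935% of all genes. Psmb10 fell (log2 fold change -0.71 ± 0.10, edgeR adjusted p = 0.0279), and its call was lost without any day 3 library, without PCL-S on day 7 or without PCL-SE on day 7, with adjusted p-values of 0.0641 to 0.268. Day 7 lay wholly above day 3 for 3 genes and wholly below for 8, against 21.1% and 21.6% of all genes.

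With S7, in contrast, 39 genes rose from day 3 to day 7 and 2 fell, Psmb10 (-0.48 ± 0.10, edgeR adjusted p = 0.00717) and Psme4 (-0.52 ± 0.12, adjusted p = 0.0119), where 24.4% of all genes rose and 26.4% fell. Levels did not overlap between the days for 42 higher and 3 lower genes, against 39.7% and 41.8% of all genes. Among the beta genes Psmb7 rose by 0.93 ± 0.09 (adjusted p = 0.00045), whereas Psme1, already higher on day 3, changed by 0.07 ± 0.10 (adjusted p = 0.578). Without PCL-SE on day 3 the count of higher genes fell, as did that over all genes. Both falls were lost with library totals (adjusted p = 0.212 for Psmb10 and 0.141 for Psme4); that of Psmb10 was also lost without PCL-SE on day 3 (0.0945) or day 7 (0.0521), and that of Psme4 without PCL-S on day 3 (0.0721) or day 7 (0.0955), without PCL-SE on day 3 (0.0846) and with the length trend removed (0.6).

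**Figure D4:**
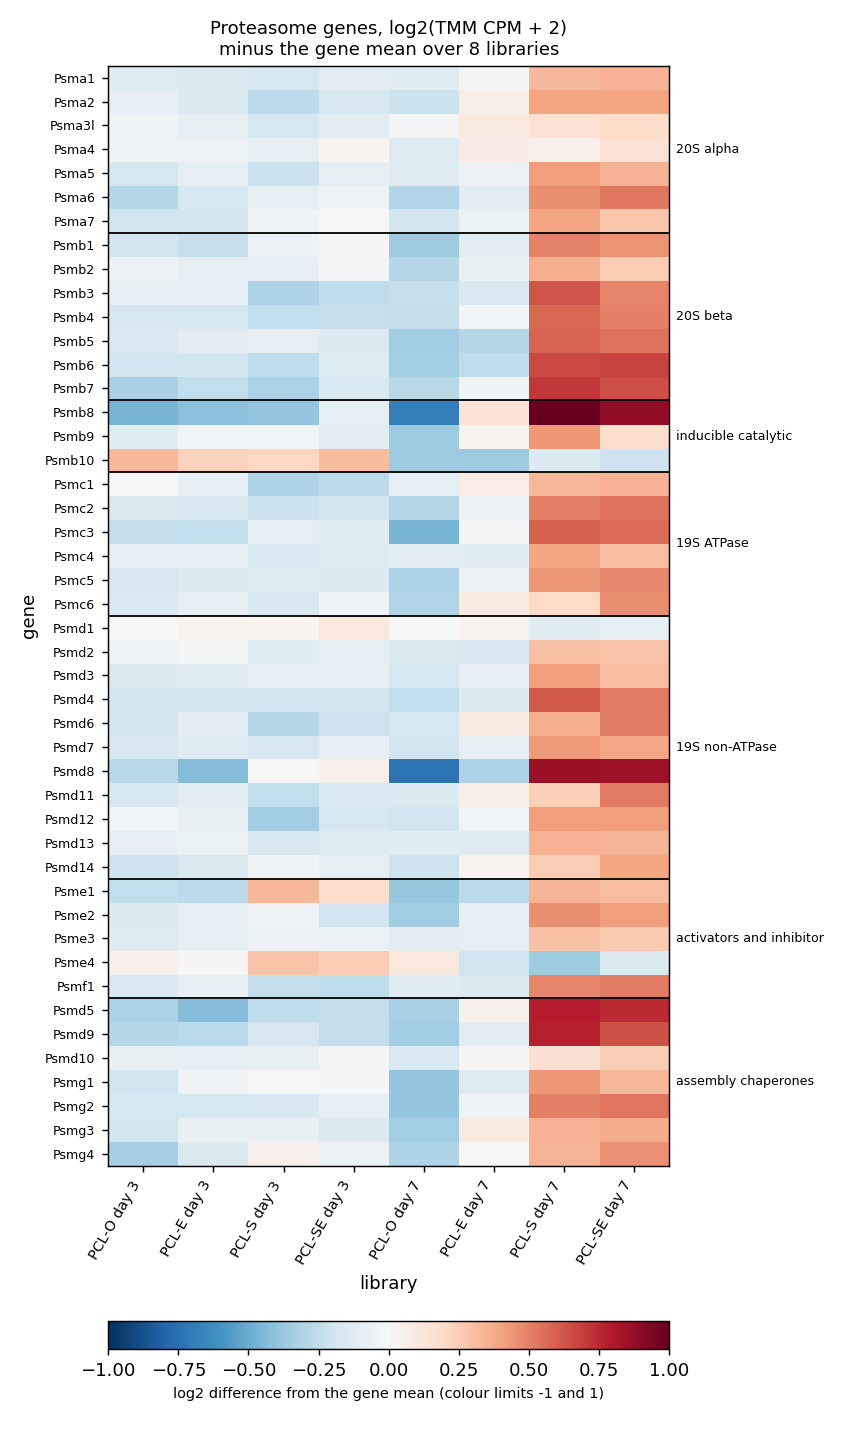
Each row is a tested proteasome gene, grouped by role, and each column a library; colour gives log2(TMM CPM + 2) minus the gene's mean over the 8 libraries, with limits at -1 and 1. The PCL-S and PCL-SE columns of day 7 are red in nearly all rows, with Psmd1, Psme4 and Psmb10 as exceptions. In most rows PCL-E on day 7 is lower than both, near or below the gene's mean.

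E7 had no called effect. Over both days, 0 of 46 genes passed in either direction, as did 0% of all genes; at an unadjusted p under 0.05 there were 3 higher genes, Psmc6, Psmd11 and Psmd6, and 0 lower, and DESeq2 called 0 of the 46 genes and 1 of all genes. The median was 0.05 for the 46 genes and -0.002 for all. Single pairs of arms within a day have 1 library per side and were not tested, and log2 ratios of TMM-scaled CPM with 2 added are given as a description. PCL-E over PCL-O on day 7 had a median of 0.20 (0 for all genes), above 0 for 40 of 46 genes and 1.5-fold or more for 1, Psmb8 (2.54% of all genes). The fit has 1 E7 term over both days and so does not test an E7 difference on day 7 without S7. PCL-S over PCL-O on day 7 had a median of 0.63 with 28 genes at 1.5-fold or more (15.5% of all genes), and PCL-SE over PCL-O, which shares that control library, 0.67 with 28 (14.8%).

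Within the arms with S7, the libraries with and without E7 were close: PCL-SE over PCL-S on day 7 had a median of -0.01, from -0.26 (Psmb9) to 0.28 (Psmd11), with 0 genes at 1.5-fold or more (0.552% of all genes). PCL-SE over PCL-E on day 7 had a median of 0.46, with 12 genes at 1.5-fold or more (10.5% of all genes), from -0.12 (Psmd1) to 1.15 (Psmd8). On day 3 the medians of the 5 pairs of arms compared lay between 0.01 and 0.06, and 0 genes were higher by 1.5-fold or more. Of all genes, 6.35% were higher by that fold in PCL-S over PCL-O, 6.2% in PCL-SE over PCL-O, 0.596% in PCL-E over PCL-O, 0.289% in PCL-SE over PCL-S and 4.55% in PCL-SE over PCL-E.

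Levels of different subunits were compared per length only. In FPKM, the 31 constitutive core and 19S genes had medians of 59.3 to 65.2 on day 3 and in PCL-O on day 7, 71.6 in PCL-E on day 7, and 114 for PCL-S and 117 for PCL-SE on day 7. Psmb4, a structural beta subunit, was the highest in every library, at 120.2 to 130.2 FPKM on day 3 and 268 and 255 FPKM with S7 on day 7. The highest gene exceeded the lowest 3.47- to 3.64-fold on day 3 and 3.59-, 4.06-, 5.14- and 4.74-fold for PCL-O, PCL-E, PCL-S and PCL-SE on day 7. The lowest gene differed between libraries. On day 7 it was Psmc6 for PCL-O, Psmd11 for PCL-E, and Psma3l, whose read assignment is uncertain, for PCL-S and PCL-SE.

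Gene length moved with the S7 effect. Across genes, the rank correlation of the length implied by FPKM with the day 7 log2 fold change was -0.36 over the 46 genes and -0.21 over all 15942 genes tested, which share the same libraries. The genes with the lowest effects, Psme4 and Psmd1, were among the longest at 7062 and 3261 bases, and Psmb6 was among the shortest at 763. Other genes went against the trend: Psmd10, the shortest at 566 bases, had 0.39, and Psmd5, at 2355 bases, had 0.92. When each library's trend with length was removed, 38 genes were called higher and 0 lower, with a median of 0.49 against 0.01 for all genes. Without that step 39 were higher and 0 lower, where 24.9% of all genes tested rose and 26.2% fell.

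**Figure D5:**
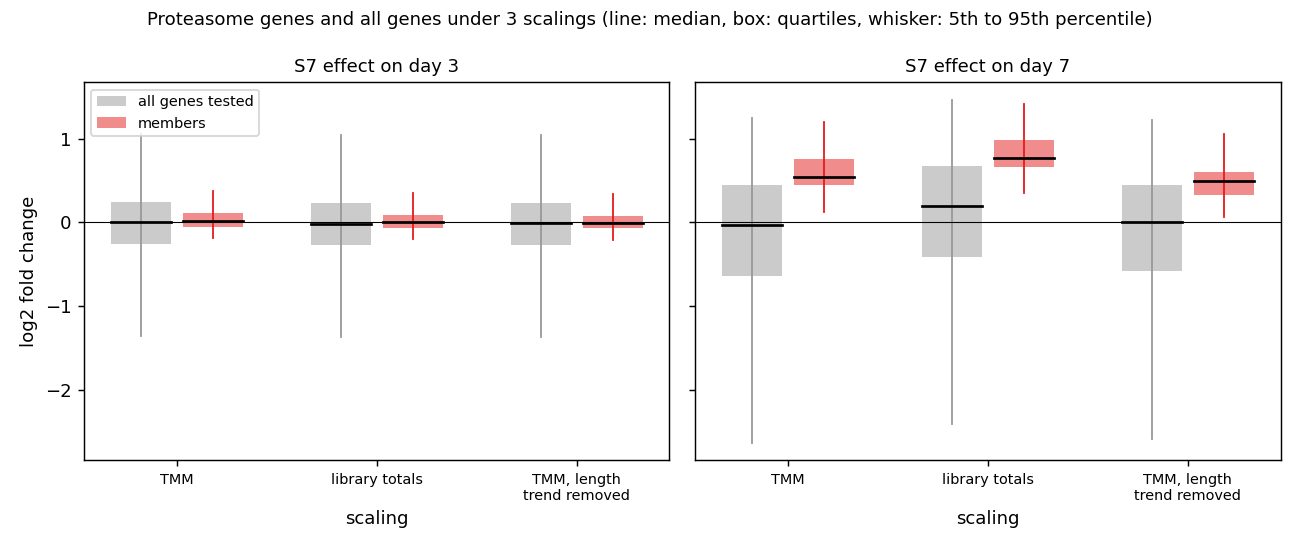
Log2 fold changes for S7 on day 3 and day 7 under 3 scalings, for the 46 proteasome genes (red) and all 15942 genes tested (grey); lines are medians, boxes quartiles and whiskers the 5th to 95th percentiles. On day 7 the median of the proteasome genes was 0.55, 0.77 and 0.49 and that of all genes -0.03, 0.19 and 0.01.

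Genes around the proteasome moved in part only. Of 11 tested regulators, 4 rose and 4 fell with S7 on day 7 (median 0.17), where 24.9% and 26.2% of all genes did. In checks added after seeing the data, 7 rose and 2 fell with library totals, and 6 rose and 3 fell with the length trend removed. The assembly factor Pomp (0.76 ± 0.11, edgeR adjusted p = 0.00175; 0.49 with the length trend removed), Akirin2, which escorts proteasomes into the nucleus (0.79 ± 0.08, adjusted p = 0.000457), Nploc4 (0.54) and Nfe2l2 rose. Ngly1, the deglycosylase that processes Nfe2l1 (-0.70 ± 0.08, adjusted p = 0.000698), Pbrm1 (-0.67; -0.45 with library totals and -0.32 with the length trend removed), Ufd1 (-0.31) and Nfe2l1 fell. Ufd1 (-0.089, adjusted p = 0.531) and Nfe2l1 lost their calls with library totals.

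Of the transcription factor genes, Nfe2l2 rose on day 7 under each scaling, and the day 7 call of Nfe2l1 depended on it. Nfe2l2 stood at 178, 185, 192 and 198 CPM on day 3 and at 194, 247, 377 and 375 CPM on day 7 for PCL-O, PCL-E, PCL-S and PCL-SE (0.55 ± 0.09, edgeR adjusted p = 0.00293). Nfe2l1 stood at 245, 234, 186 and 173 CPM on day 3 and at 220.2, 225, 225 and 214 CPM on day 7. It was lower with S7 on day 3 (-0.40 ± 0.07, edgeR adjusted p = 0.016) and on day 7 (-0.24 ± 0.07, adjusted p = 0.0294). Its day 7 libraries differed little in CPM, and the day 7 call was lost with library totals (-0.02, adjusted p = 0.859) and with the length trend removed (-0.15, adjusted p = 0.0926). Of 14 tested targets of Nfe2l2, 12 rose and 0 fell with S7 on day 7 (median 1.44), where 24.9% of all genes rose and 26.2% fell. Those that rose included the haem oxygenase gene Hmox1 (2.62 ± 0.49, edgeR adjusted p = 0.00471) and the glutathione synthesis gene Gclc (1.69 ± 0.12, adjusted p = 0.000187). A link of Nfe2l2 or Nfe2l1 with the proteasome genes was not tested.

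For S7 on day 7, 24.9% of all genes tested rose and 26.2% fell. With library totals, more of all genes rose and fewer fell, as given above. Of 10 tested proteins that bind the 19S particle, 6 rose and 0 fell (median 0.25), and 10 rose with library totals. Zfand2a (0.76) and the ubiquitin receptor Adrm1 (0.70) rose most. Of 12 ubiquitin and shuttle genes, 6 rose and 1 fell (median 0.25), and 8 rose and 1 fell with library totals (median 0.47): the autophagy receptor Sqstm1 went from 327 to 505 CPM in 6 libraries to 1577 and 1529 CPM with S7 on day 7 (1.68 ± 0.15, edgeR adjusted p = 0.000297), and the activating enzyme Uba6 fell by 0.60 on the log2 scale, by 0.37 with library totals and by 0.19 with the length trend removed. Of 13 genes that act with the inducible subunits in antigen presentation, 3 rose, near the share over all genes, and 6 fell. Their median was -0.13, with 0.10 for library totals and 0.04 with the length trend removed. The peptide transporter chains Tap1 (0.70) and Tap2 (1.71) rose, whereas B2m (-0.73), the peptidase Erap1 (-0.94) and the chaperones Calr (-1.11), Canx (-1.01) and Pdia3 (-1.17) fell.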

How the data were processed

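Counts and FPKM of 8 messenger RNA libraries were used. The deposited counts are whole numbers per feature and library, per the file headers, and the deposited FPKM are the authors' values scaled for length and depth, per the file headers. TRIzol RNA went into a SMARTER mRNA library kit, per the labels' protocols, which give n = 3 RNA samples. With their pooling, the aligner and the counting tool not given in the sources used here, mm10 alone is named, in the submitters' processing notes. Of 26873 features, 22050 have rat identifiers and 4823 are new genes; 10 lines of text fragments were left out, and 0 further columns of samples were unused.

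Counts were filtered (filterByExpr, 15942 genes left), scaled with TMM and fitted in edgeR 4.0.16 (R 4.3.3) by the quasi-likelihood method with a residual df of 3 and a BCV of 0.137. Alternatives were DESeq2 1.42.0, RLE size factors, library totals, no filter, removal of each library's trend with length, no E7 term, an additive fit, leaving out each library in turn and, for pairs, 0.5 added or library totals. Lengths were taken from the ratio of counts to FPKM. Depth was 32950326 to 41754124 counts per library; floors cover counting error only.

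In each role, the genes with the highest and lowest S7 effect on day 7 and all catalytic and cap subunits are named, with others as examples chosen after their values were seen. The members, lists and tests were chosen with earlier results of these data known; Psma3l was assigned its role after the files were seen. A gene that these lists name is not reported here.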

Additional observations from a re-analysis of the deposited data

Results flagged for a closer look

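The S7 effect differed between day 3 and day 7 by the interaction test for 32 of the 46 tested proteasome genes, all of them more positive on day 7. Among the genes named, the interaction on the log2 scale was 1.00 for Psmb6, 0.99 for Psmd8, 0.89 for Psmd9, 0.89 for Psmb5, 0.80 for Psmb7, 0.72 for Psme2, 0.67 for Psmc3, 0.60 for Psmc1, 0.54 for Psma6, 0.47 for Psmb2 and 0.34 for Psme3. Psmb6 and Psmb5 had the lowest adjusted p-values of the 11, 0.00224 and 0.00296 (edgeR). The calls of Psmb5 and Psmb6 held on leaving out each library in turn, whereas that of Psmb2 was lost in 7 of these 8 fits, those of Psmc3, Psme2 and Psme3 in 6, that of Psma6 in 5, those of Psmc1 and Psmd8 in 4 and those of Psmb7 and Psmd9 in 1.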

How the results depend on the processing

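Counts of higher genes for S7 on day 7 stayed within 1.5 times the reported 39 under DESeq2, RLE factors, library totals, no filter, length correction and no E7 term. The additive fit, which estimates 1 S7 effect over both days, is not an estimate for day 7; it called 1 gene and gave 0.021 for Psme4, whose day 3 and day 7 effects were 0.25 and -0.21. Leaving out each library gave 33 to 40 higher and 0 to 1 lower genes for S7 on day 7, 0 to 2 and 0 to 1 for S7 on day 3, 7 to 38 and 0 to 1 for the interaction, 0 to 1 and 0 to 1 for day without S7, 25 to 40 and 0 to 3 for day with S7, and 0 and 0 for E7. With the length trend removed, 1 gene was lower for S7 on day 3 (Psmc1), and 1 (Psmb10) rather than 2 fell over time with S7; with library totals 0 did. Signs reversed for S7 on day 7 with library totals for Psmd1 (0.10) and Psme4 (0.02) and with the length trend removed for Psma4 (-0.004) and Psme4 (0.203). Over time with S7 they reversed for Psmd1 (0.14, library totals) and Psme1 (-0.091, length trend; -0.021 without PCL-SE on day 3, in a leave-one-out range of -0.021 to 0.169). The median ratio of PCL-S to PCL-O on day 3 became -0.001 with library totals. The cause was not tested. No paired analysis was possible because each arm and day has 1 library and the labels give no replicate numbers. At these depths Psma8 and Psmb11 could not be tested.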
